A study of Mus musculus with 8 samples.

Results

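Regions that carried H3K27me3 in every glioma sample, lay free of any astrocyte peak and yet sat within 5 kb of one numbered 1579, among 3745 regions acquired by all glioma samples and 99646 regions in the series. They were found by pooling the 5 H3K27me3 peak lists and merging peaks that overlapped or touched. A merged region was kept when it held a peak of PT 1, PT 3 and PT 4 and none of AstroEGFR 1 or AstroEGFR 3, and when the gap to the nearest AstroEGFR peak was 5000 bp or less. The members were thus chosen by the presence and absence of peaks and by distance, and those values are given below as description only. The question was whether such regions look like the widening of domains already present before transplantation.

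AstroEGFR cells (libraries 1 and 3) were cortical astrocytes of C57BL/6 mice taken at postnatal day 5. They were knockout for p16/p19, which Ink4a/Arf encodes, and expressed human EGFRvIII, a constitutively active EGF receptor, from a retrovirus. PT cells (libraries 1, 3 and 4) were glioma propagating cells cultured from tumours of such cells of C57BL/6 origin grown in CD1 Nude mice, so the loss of Ink4a/Arf and the EGFRvIII retrovirus were common to both groups. All cells were cultures of fewer than 10 passages and the same H3K27me3 antibody was used throughout. Tumours came from numbered astrocyte batches, but the labels do not name the batch of a PT library, and AstroEGFR cells were grown in serum whereas PT cells were grown with EGF and FGF-2 on laminin, so stage and culture medium cannot be told apart.

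H3K27me3 is deposited by Polycomb repressive complex 2, through its EZH2 or EZH1 subunit, and marks silenced chromatin, much of it at developmental genes. The complex also binds the mark it makes through its EED subunit, which stimulates further methylation of neighbouring nucleosomes. A domain can by this means extend from a nucleation site, often a CpG island, and be maintained through cell division. In peak lists, an extending domain could be recorded as a wider peak over the old one, a form that the rule here leaves out. It could also be recorded as new peaks flanking a peak that is itself kept. Only this latter form can be found among acquired regions, and it is the reason for examining their neighbours.

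The lists differed in extent. AstroEGFR 1 held 34021 peaks and AstroEGFR 3 held 3722, against 64504 in PT 1, 40090 in PT 3 and 66279 in PT 4. AstroEGFR 3 and PT 3 held 0 peaks on unplaced sequences, whereas the other lists held 179 to 236, so the lists fall into a pair and a trio that cut across the stages. The number of reads is unknown, and where a list has no peak the mark may still be present below its threshold. Because AstroEGFR 3 and PT 3 stand apart, results are also given without them. No gene annotation of mm9, the build of the lists, was used here, so regions are given by position, and the labelled cell types were not checked against marker genes.

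Nearness to an AstroEGFR peak was common among regions with PT peaks. Of the acquired regions, 42.2% (Wilson 95% CI 40.6 to 43.8) lay within 5 kb, whereas 33.0% of the 71557 regions with a peak in any PT list and no AstroEGFR peak did so. The share rose with the number of PT lists, from 29.5% of regions with a peak in 1 PT list to 41.1% of those with peaks in 2. Acquired regions and regions of 2 PT lists thus stood close together. Bases within 5 kb of an AstroEGFR peak made up 5.90% of the chromosome span outside those peaks (the peak-free span), so regions of every class lay there more often than bases at large. Regions were measured from their edges, so a region lies within 5 kb more readily than a single base, and part of the difference comes from this. Without AstroEGFR 3 the members numbered 1585, or 40.0% of acquired regions. The number depended on the other libraries: it was 910 without AstroEGFR 1, 7727 without PT 3, 2602 without PT 1 and 2586 without PT 4. The share was 41.9% without PT 3 and 9.37% without AstroEGFR 1, when only 1.09% of the peak-free span was within 5 kb of a remaining AstroEGFR peak.

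**Figure D1:**
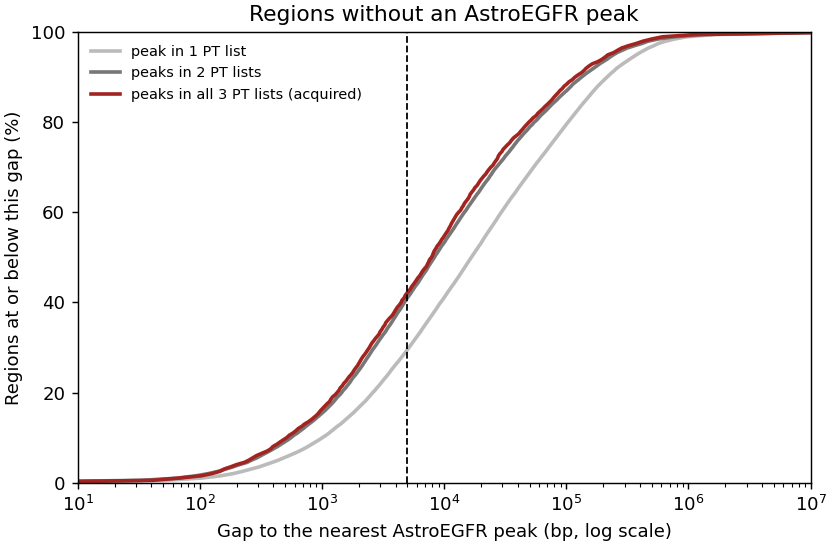
Gap from each region without an AstroEGFR peak to the nearest AstroEGFR peak, in bp on a log scale, against the percentage of regions at or below that gap, for regions with peaks in 1, 2 or all 3 PT lists. At the dashed line of 5000 bp the curves stand at 29.5%, 41.1% and 42.2%.

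The gap of the members ran from 3 to 4998 bp, with a median of 1408 bp and quartiles of 545.5 and 2666.5 bp. Of the members, 367 (23.2%) lay within 500 bp of the AstroEGFR peak, 611 (38.7%) within 1000 bp and 988 (62.6%) within 2000 bp. The nearest peak belonged to AstroEGFR 1 for 1447 members and to AstroEGFR 3 for 132. Members lay to the right of the peak in 800 cases and to the left in 779, so both sides were nearly equal in number. The 1579 members shared 1479 distinct nearest peaks, of which 1390 were nearest to a single member and at most 4 members shared a peak. Just inside the limit stood a region on chromosome 2 from 157533041 to 157534195 with a gap of 4998 bp and a region on chromosome 15 from 99116826 to 99118401 with a gap of 4990 bp. The first acquired regions outside it were one on chromosome 2 from 167032320 to 167037525 at 5010 bp and one on chromosome 9 from 43269699 to 43273101 at 5030 bp, so the limit cut through a continuous distribution.

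The members were short regions with peaks of middling score. Their width ran from 641 to 11340 bp, with a median of 1758 bp, and 80.1% held a single peak of PT 1, 86.2% a single peak of PT 3 and 78.8% a single peak of PT 4. The score is the value that MACS, the peak caller, gives each peak, and a peak's percentile is its rank within its own list. For the best peak of a member the median percentile was 63.8 in PT 1 and in PT 4, and 52.4 in PT 3. Peaks of PT 1 covered a median of 78.1% of the region, those of PT 4 73.7% and those of PT 3 53.2%. PT 3 held the most covered bases in 290 members (18.4%), against 710 for PT 1 and 579 for PT 4. The rule fixes that every PT list has a peak in a member, but the extent differed between lists, and PT 3 marked the smallest part.

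Members were set beside the 2166 acquired regions farther than 5 kb from an AstroEGFR peak. PT 1 peaks had a median width of 943 bp in members and 1024 bp in farther regions, PT 3 peaks 678 and 685 bp, and PT 4 peaks 918.5 and 936 bp. The difference of -35.2 ± 40.0 bp (SD, n = 3 libraries) was negative in 3 of 3 libraries (exact permutation test over libraries, two-sided, p = 0.25, the smallest this design allows). The best peak of members minus that of farther regions was -6.18 percentile points in PT 1, -1.07 in PT 3 and -2.40 in PT 4, a mean difference of -3.22 ± 2.65 points (SD, n = 3; exact permutation p = 0.25). For covered length per region the difference was -178 bp with PT 1, -28.5 bp with PT 3 and -70.5 bp with PT 4, a mean difference of -92.5 ± 77.4 bp (SD, n = 3; exact permutation p = 0.25). All 3 measures had the same sign in every PT library, but no comparison of 3 libraries can pass 0.05. In PT 3 the differences were small beside the spread of the others. A PT peak that reached the AstroEGFR peak would have been merged with it and the region lost. The rule thus caps peak width and covered length near AstroEGFR peaks, so their lower values in members are in part fixed by it. How far this lowers the percentile was not tested. Among acquired regions ordered by gap, those within 1000 bp had the lowest median percentile in each PT list, 62.4 in PT 1, 48.8 in PT 3 and 61.2 in PT 4. Those beyond 100 kb stood at 68.2, 57.1 and 68.7, but the gap ranges between did not rise steadily. PT 3 stood at 55.8 from 2000 to 5000 bp, but 51.7 from 5000 to 10000 bp and 53.5 from 10000 to 100000 bp. PT 1 was highest, at 71.7, from 10000 to 100000 bp. Median peak width was also lowest within 1000 bp, at 922, 665 and 881 bp. At 2000 to 5000 bp it was 947, 696 and 946 bp, against 1060, 678 and 931 bp at 10000 to 100000 bp. Only PT 1 peaks were thus narrower in the nearer of these ranges. The same cap holds at short gaps, so these values are given as description.

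A domain that had widened would still be marked at the old site, so the nearest AstroEGFR peak was examined in the PT lists. Of the 1579 members, 618 (39.1%, CI 36.8 to 41.6) had a nearest AstroEGFR peak overlapped by peaks of all 3 PT lists, 614 (38.9%) by 2, 232 (14.7%) by 1 and 115 (7.28%, CI 6.10 to 8.67) by none. Over all peaks of both AstroEGFR lists these shares were 29.9% for all 3 PT lists and 18.5% for none. Where 2 PT lists overlapped the peak, they were PT 1 and PT 4 in 517 of 614 members (84.2%). Most members thus lay beside a peak that some PT list still held, and the list most often missing was PT 3. Without PT 3 the share with the neighbour kept in both remaining PT lists was 70.7%, against 60.8% of all AstroEGFR peaks. Without AstroEGFR 1 the share in all PT lists was 54.6%, against 49.7% of all AstroEGFR 3 peaks.

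By neighbour list, AstroEGFR 1 peaks next to a member were overlapped by PT 1 in 82.8% of cases, by PT 3 in 46.9% and by PT 4 in 81.6%. Over all AstroEGFR 1 peaks the shares were 70.2%, 34.0% and 68.8%. All 3 PT lists overlapped 39.3% of the AstroEGFR 1 neighbours, against 27.7% of all AstroEGFR 1 peaks, and none overlapped 7.19%, against 18.9%. PT 1, PT 3 and PT 4 therefore each overlapped neighbour peaks more often than AstroEGFR 1 peaks at large. For the 132 members beside an AstroEGFR 3 peak, that peak was overlapped by all 3 PT lists in 37.1% (CI 29.4 to 45.6), below the 49.7% of all AstroEGFR 3 peaks. It was overlapped by none in 8.33%, against 15.0%. PT 1 overlapped it in 65.2%, PT 3 in 66.7% and PT 4 in 62.1%, against 68.0%, 66.7% and 68.7% of all AstroEGFR 3 peaks. The excess that each PT list had at AstroEGFR 1 neighbours was thus not seen for these 132 members. They are the members with no AstroEGFR 1 peak nearer, whereas 249 members lay within 5 kb of an AstroEGFR 3 peak. With AstroEGFR 1 left out, 54.6% of 910 members had the neighbour in all PT lists, above the 49.7%. The result thus depended on which regions were counted. For regions with 1 and 2 PT lists, the AstroEGFR 1 neighbour lay in all PT lists in 18.8% and 23.8% of cases, against 39.3% for members. By single list, regions with 2 PT lists stood near members in PT 1, 78.9% against 82.8%, and in PT 4, 77.0% against 81.6%. In PT 3 they stood at 29.1% against 46.9%, the widest of these differences. A member is by the rule marked in all PT lists, so its neighbour has close PT peaks of every list nearby, and these shares are a description.

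**Figure D2:**
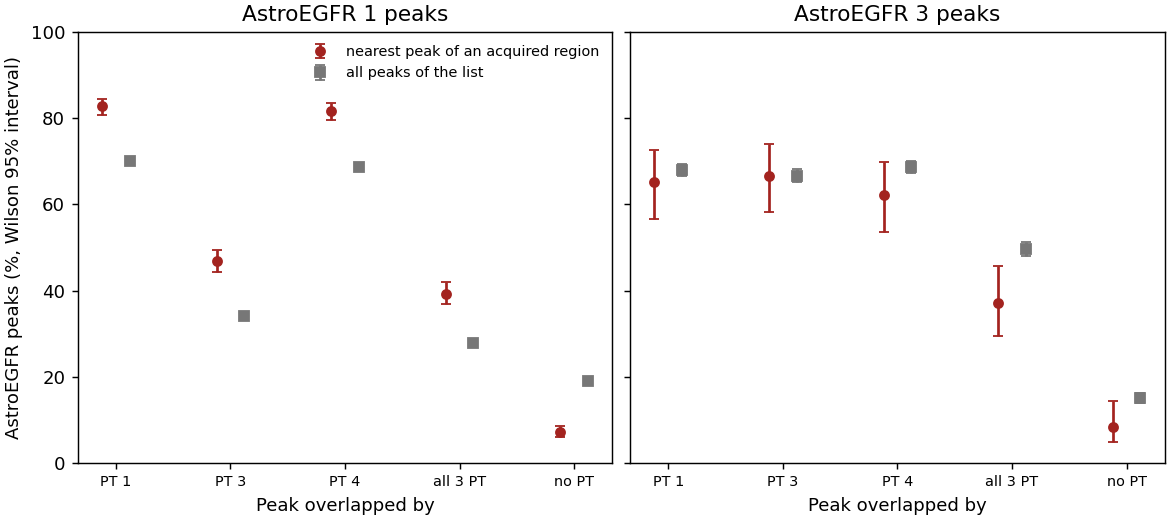
Percentage of AstroEGFR 1 peaks (left) and AstroEGFR 3 peaks (right) overlapped by each PT list, by all 3 and by none, with Wilson 95% intervals that cover counting error only. Neighbours of acquired regions (circles) lay above all peaks of the list (squares) in each PT list for AstroEGFR 1, 82.8% against 70.2% for PT 1, whereas for AstroEGFR 3 the share in all 3 PT lists was 37.1% against 49.7%.

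Members whose neighbour was kept differed from those whose neighbour was not. Where all 3 PT lists overlapped the nearest AstroEGFR peak, that peak had a median width of 1184 bp and stood at percentile 59.2 of its list. Where no PT list did, it was 736 bp wide and stood at percentile 19.8. The median width of the members fell from 1843 bp with a neighbour in all PT lists to 1475 bp with a neighbour in none, and the best peak fell from percentile 68.7 to 53.4 in PT 1 and from 67.1 to 50.9 in PT 4. In PT 3 it stood at percentile 58.4 with the neighbour in all PT lists and already at 48.4 with the neighbour in 2. The AstroEGFR peaks that no PT list held thus mostly ranked low in their lists. The gap was shorter in the same order, with medians of 1577 and 1120 bp.

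The AstroEGFR peaks beside members are described next. The 1361 distinct AstroEGFR 1 neighbours had a median width of 961 bp and a median percentile of 43.4, whereas all AstroEGFR 1 peaks had a median width of 1031 bp. Of these neighbours, 39.9% (CI 37.3 to 42.5) had no other AstroEGFR 1 peak within 5 kb, against 18.9% of all AstroEGFR 1 peaks. When AstroEGFR 1 peaks at most 1 kb apart were joined into chains, the chain at a neighbour had a median of 1170 bp, against 2465 bp at all AstroEGFR 1 peaks. The rule asks for a place without AstroEGFR peaks beside the neighbour, which favours isolated peaks and chain ends, so both values are in part fixed by it and nothing is read from them.

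PT chains were measured at the same neighbours. Where a PT list had a peak at the neighbour, the median chain of that list measured 5440 bp for PT 1, 2449 bp for PT 3 and 5031 bp for PT 4. It was wider than the AstroEGFR 1 chain at 88.5% of such sites in PT 1, 57.3% in PT 3 and 85.3% in PT 4, against 67.7%, 30.0% and 65.5% over all AstroEGFR 1 peaks. These comparisons carry the short AstroEGFR 1 chain that the rule favours. The PT chains at AstroEGFR 1 peaks at large had medians of 5622, 2257 and 5141 bp, close to those at the neighbours. Joined at 2 kb, PT 3 chains had a median of 4781.5 bp at the neighbours and 3868 bp at large, and PT 1 chains 9900 and 9418.5 bp, so for PT 3 the closeness depended on the joining distance.

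**Figure D3:**
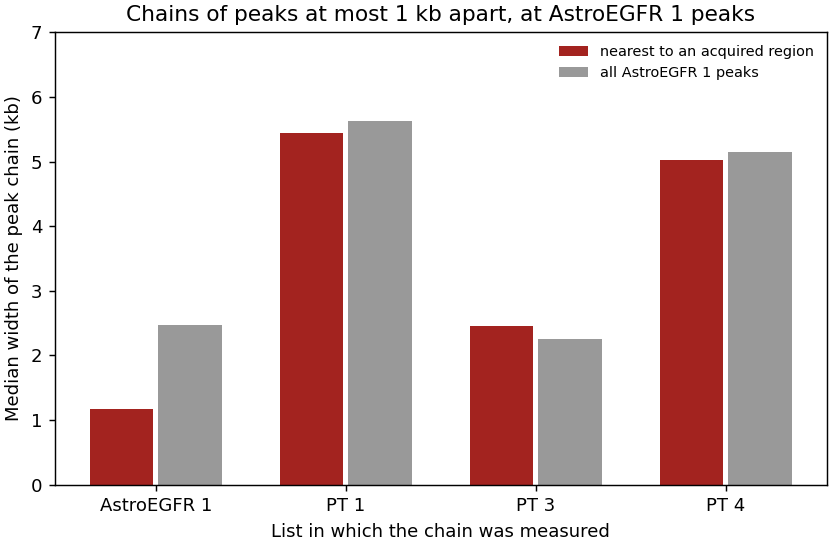
Median width in kb of the chain of peaks at most 1 kb apart, measured in AstroEGFR 1 and in each PT list that had a peak there, at the AstroEGFR 1 peaks nearest to acquired regions (red bars) and at all AstroEGFR 1 peaks (grey bars). The red bar is shorter in AstroEGFR 1, 1170 against 2465 bp, and close to the grey bar in PT 1, PT 3 and PT 4.

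The edges of the neighbour peaks were then compared. Where PT 1 overlapped the nearest AstroEGFR peak, its peak reached past that peak towards the member in 67.6% of cases, by a median of 132.5 bp, and past it on the other side in 75.2%, by a median of 290.5 bp. In PT 4 these were 65.0% and 69.5%, with medians of 109 and 203 bp. PT 3 peaks reached past the edge in 46.2% towards the member and 54.1% away from it, with medians of -45 and 40 bp. All AstroEGFR 1 peaks gave 65.5% in PT 1, 44.1% in PT 3 and 62.5% in PT 4 over both edges. The edges that faced a member, most of them at AstroEGFR 1 peaks, gave shares close to these. All AstroEGFR 3 peaks gave higher shares, 86.7% in PT 1, 74.8% in PT 3 and 86.7% in PT 4. A peak that reached the member would have been merged with it and the region lost, so the facing side is kept short by the rule and the sides cannot be compared.

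The gap between member and neighbour was partly filled. PT 1 had a peak in the gap of 1044 members (66.1%), PT 4 in 1003 (63.5%) and PT 3 in 534 (33.8%). Among other AstroEGFR-free regions within 5 kb with a peak of the list, these shares were 61.1%, 57.0% and 37.4%, so members stood near them and PT 3 below. Of all gap bases, 35.7% lay in PT 1 peaks, 32.9% in PT 4 peaks and 15.0% in PT 3 peaks. In as many bases on the other side of the member, 21.6%, 20.7% and 10.5% did, and in the gaps of the other regions 30.6%, 27.8% and 15.5%. Gaps of members were thus more covered than their other side in each PT list, and in PT 3 no more than the gaps of other regions. At least 50% of the gap was covered in 482 members by PT 1, in 404 by PT 4 and in 150 by PT 3. The AstroEGFR lists covered none of it, since the gap ends at the nearest AstroEGFR peak.

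Joining peaks of a list at most 1 kb apart linked the member to the nearest AstroEGFR peak in 693 members (43.9%) in PT 1, 239 (15.1%) in PT 3 and 655 (41.5%) in PT 4. At least 1 PT list made the link in 943 members (59.7%) and all 3 made it in 114 (7.22%). Other AstroEGFR-free regions within 5 kb were linked in 41.9% of cases in PT 1, 19.5% in PT 3 and 38.1% in PT 4, so the shares of members stood near these, above them in PT 1 and PT 4 and below in PT 3, and these differences were not tested. With links of up to 2 kb, all 3 PT lists joined 331 members (21.0%) to the neighbour and none joined 277 (17.5%). Such a link allows unmarked stretches of up to the joining distance, and the 611 members within 1000 bp of the neighbour could be linked with no PT base in the gap.

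The flanks of the members were richly marked in PT. Within 10 kb on each side, outside the member itself, peaks covered a mean of 7.07 kb in PT 1, 3.50 kb in PT 3, 6.76 kb in PT 4, 3.45 kb in AstroEGFR 1 and 0.248 kb in AstroEGFR 3. The flanks of farther acquired regions held 4.30, 2.11 and 3.87 kb in PT 1, PT 3 and PT 4, and those of the 435 regions beyond 100 kb held 2.96, 1.44 and 2.64 kb. Of the members, 98.1% had another PT 1 peak in these flanks and 88.7% another PT 3 peak, against 89.1% and 75.4% of the farther acquired regions and 80.2% and 62.3% of the regions beyond 100 kb. Further PT peaks in the flanks were thus common to all acquired regions, and the covered length fell with distance from AstroEGFR peaks.

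Marking was uneven on the sides of a member. In the bin centred 2750 bp from the edge on the side of the nearest AstroEGFR peak, 54.8% of bases lay in PT 1 peaks, 25.2% in PT 3 peaks, 50.8% in PT 4 peaks and 32.4% in AstroEGFR 1 peaks. On the other side at the same distance these were 26.9%, 13.7%, 25.9% and 8.08%. The PT lists therefore shared the orientation of AstroEGFR 1, and marked the AstroEGFR side more densely. By 19750 bp the sides were closer, with 28.1% and 24.4% in PT 1. Farther acquired regions had this orientation too, so it was not particular to members. In their bin centred at 10750 bp, PT 1 covered 27.5% on the AstroEGFR side and 15.1% on the other. PT 3 covered 12.6% and 8.68% there, and PT 4 24.9% and 14.1%. The orientation is set by the AstroEGFR peak, and the part that the overlap of AstroEGFR 1 and PT peaks over the whole lists has in this was not tested.

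**Figure D4:**
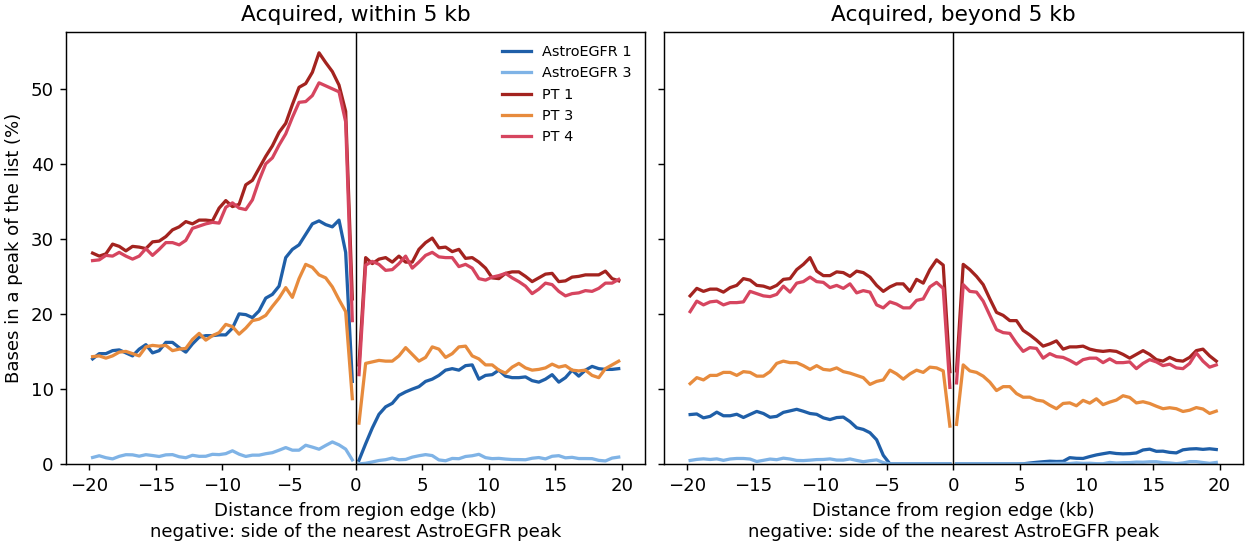
Percentage of bases in a peak of each list, in 500 bp bins from the edge of acquired regions (kb; negative values on the side of the nearest AstroEGFR peak), for members (left) and acquired regions beyond 5 kb (right). PT coverage beside members was higher on the side of the AstroEGFR peak, 54.8% against 26.9% in PT 1 at 2750 bp. Beside the farther regions it was also higher on that side, 27.5% against 15.1% in PT 1 at 10750 bp. The fall next to the edge follows from merging peaks that touch.

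A position between AstroEGFR peaks was found for 416 members (26.3%, CI 24.2 to 28.6), which had an AstroEGFR peak within 5 kb on both sides. The share was 25.2% over all 23640 AstroEGFR-free regions within 5 kb, so it was near the background. Without AstroEGFR 1 it was 6.26%. In these members the flanking AstroEGFR peaks were a median of 5232.5 bp apart, and the member took a median of 35.6% of that distance. Members with a peak on both sides had a median width of 1640.5 bp and those with a peak on 1 side 1803 bp. The remaining members had no AstroEGFR peak within 5 kb on their other side, and with a limit of 10 kb the share flanked on both sides was 36.3%.

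Adjacency was also found in the opposite direction. Regions marked in both AstroEGFR lists and in no PT list numbered 23, and 18 of them (78.3%, CI 58.1 to 90.3) lay within 5 kb of a PT peak, where 13.5% of the peak-free span lay as close. As a ratio of the regional to the genomic share this was 5.80, against 7.14 for the acquired regions. The 10 classes of regions marked in exactly 3 lists were each measured against the lists they lacked. Among them the acquired regions had the lowest share and ranked 7 by this ratio, which ran from 5.64 to 8.41. These classes held from 15 to 7410 regions, so the values of the smallest are imprecise. The ratio also has a lower ceiling where more of the span lies close to the lacking lists. It sets regions, measured from their edges, against single bases, and the widths of the classes were not matched, so its order is a description. Lying within 5 kb of a peak of the missing lists was thus not particular to acquisition in PT.

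Within the sets of lists the picture was similar in ratio. Of the 18441 regions with peaks of PT 1 and PT 4 and none of AstroEGFR 1, 39.8% lay within 5 kb of an AstroEGFR 1 peak (ratio 7.14). Conversely, of 7155 regions of AstroEGFR 1 without PT 1 or PT 4, 63.9% lay within 5 kb of such a PT peak (ratio 5.77). In the other set, 6.20% of the 29917 PT 3 regions without AstroEGFR 3 lay within 5 kb of an AstroEGFR 3 peak (ratio 5.68), and 42.0% of the reverse class lay as close to a PT 3 peak (ratio 5.41). The shares followed the length of the list that was lacking, and the ratios stayed between 5.41 and 7.14 in both directions.

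Members were spread over all autosomes. Chromosome 10 held 203 (12.9% of members), against 11.7% of the AstroEGFR 1 peaks, and chromosome X held 1. The share of acquired regions that were members ran from 29.9% (CI 25.3 to 34.8) on chromosome 7, with 106 of 355, to 57.1% (CI 48.9 to 65.0) on chromosome 1, with 80 of 140, among the autosomes. Chromosome 7 thus had the lowest share among the autosomes, although its 106 members were 6.71% of all members, against 5.89% of the AstroEGFR 1 peaks.

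Among the strongest members with a kept neighbour, PT peaks filled much of the gap in some and little of it in others. These are the 6 members with the highest rank of the best peak in the PT list where it was lowest. The first, on chromosome 15 from 58580513 to 58590896, spanned 10384 bp, of which PT 1 covered 10384 bp, PT 3 5679 bp and PT 4 9166 bp, with best scores of 3100, 779 and 2032. The AstroEGFR 1 peak, 2811 bp wide at percentile 87.1, ended 2611 bp to its left, and PT 1 covered 2373 bp of that gap, PT 3 1026 bp and PT 4 2113 bp. PT 1 peaks thus ran with short breaks from the AstroEGFR peak to the far end of the region, PT 4 peaks covered most of this stretch, and PT 3 peaks less than PT 4.

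The second, on chromosome 10 from 77825578 to 77833771, was covered over 7807 bp by PT 1, 7634 bp by PT 3 and 8016 bp by PT 4. The gap to an AstroEGFR 1 peak of 1425 bp on its right was 2329 bp, of which PT 1 covered 1930 bp, PT 3 2203 bp and PT 4 1927 bp. All PT lists thus filled most of the gap here. On its left the next AstroEGFR peak was 205020 bp away, and PT 3 and PT 4 had further peaks on that side within 15 kb of its centre.

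The other strong members with a kept neighbour were smaller. A region on chromosome 10 from 43813294 to 43818308 lay between AstroEGFR 1 peaks 1613 bp to the right and 5568 bp to the left, and reached its highest rank, 98.2, in PT 3. On chromosome 5, a region from 111846478 to 111851849 had its AstroEGFR 1 neighbour, 2854 bp wide, at 2885 bp, with PT 1 covering 2300 bp, PT 3 1069 bp and PT 4 124 bp of the gap. One on chromosome 2 from 4987947 to 4991145 was enclosed by AstroEGFR peaks, 2011 bp to the left and 958 bp to the right, and its right neighbour stood at percentile 96.5 of AstroEGFR 1. PT 3 covered 0 bp of that gap, PT 1 205 bp and PT 4 251 bp, so the mark was interrupted in all lists. The sixth, on chromosome 6 from 89183483 to 89189233, was 1286 bp from an AstroEGFR 3 peak of 648 bp at percentile 7.08.

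Of the members whose nearest AstroEGFR peak no PT list held, the 4 strongest are given next. On chromosome 4 from 106294096 to 106298773, PT 1 covered 4479 bp, PT 3 2001 bp and PT 4 4646 bp, and the AstroEGFR 3 peak of 771 bp lay 1870 bp to the left across a gap with 0 bp in any PT peak. On chromosome 14 from 67394709 to 67400266, the neighbour was an AstroEGFR 1 peak of 604 bp at percentile 20.6, and the gap of 3701 bp held 0 bp of PT 1, 642 bp of PT 3 and 790 bp of PT 4. On the map of this region, AstroEGFR 1 peaks just beyond that neighbour did overlap peaks of every PT list. A region on chromosome 11 from 102573416 to 102575046 had AstroEGFR peaks 1298 and 1148 bp away, and one on chromosome 15 from 77203038 to 77206541 an AstroEGFR 3 peak of 639 bp at percentile 11.3. In 3 of the 4, no PT list had a peak in the gap to the nearest AstroEGFR peak. All 4 were chosen for a nearest peak that no PT list held, so the lack of PT peaks joining them to it follows from that choice. The mark may still be present there below the threshold.

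**Figure D5:**
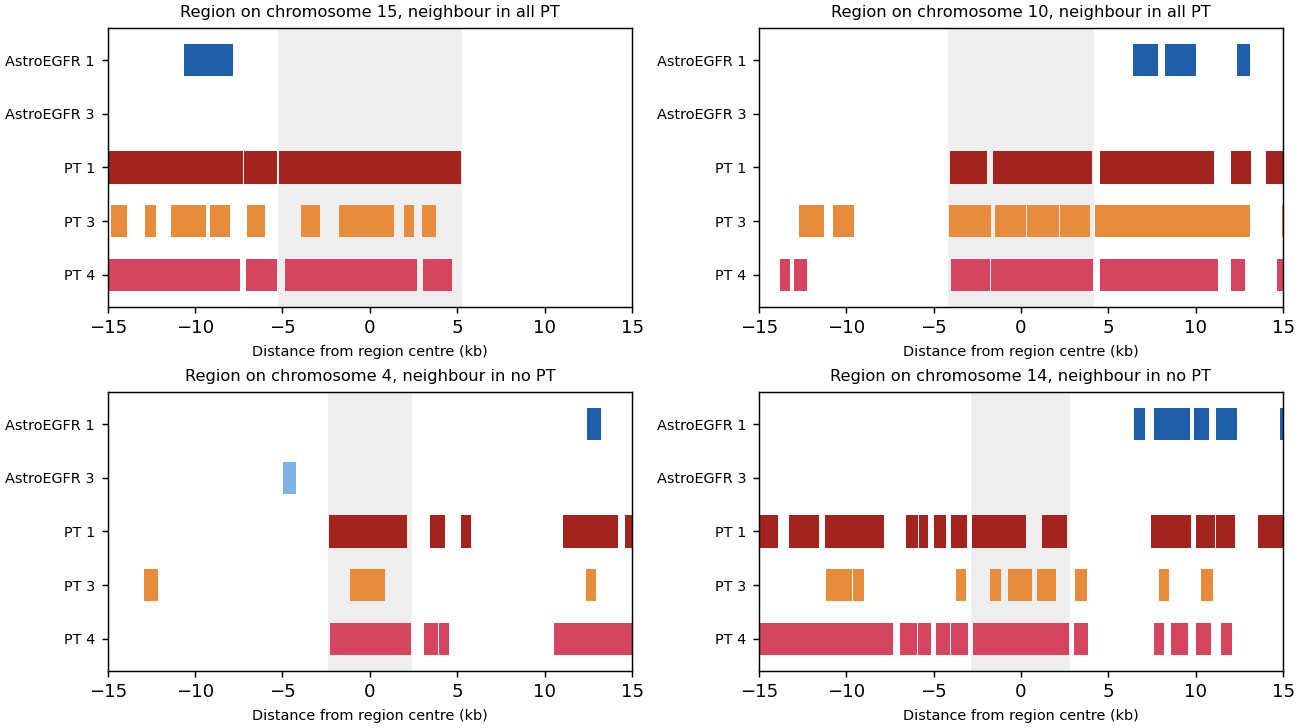
Peaks of the 5 lists around 4 acquired regions (grey band), as distance in kb from the region's centre: above, regions on chromosomes 15 and 10 whose nearest AstroEGFR peak all PT lists overlapped; below, regions on chromosomes 4 and 14 whose nearest AstroEGFR peak no PT list overlapped. In the upper panels each PT list has peaks in the gap between the AstroEGFR peak and the region, with breaks. On chromosome 15 PT 3 covers 1026 of the 2611 bp of the gap. On chromosome 4 the gap of 1870 bp holds no PT peak.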

How the data were processed

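H3K27me3 was measured by chromatin immunoprecipitation and sequencing in 2 AstroEGFR and 3 PT libraries, and 3 input libraries were not used here. Per the labels, the submitters' processing notes name Bowtie 0.12.9, MACS 1.4.1 and mm9. The authors called peaks per library, and each deposited list gives a score per peak, taken to be the scaled −log10 p-value that MACS writes and used for ranks and filters. Lowest scores were 70.05 to 75.69. The p cut-off, the control and the read number are not given in the sources used here, so depth and its precision are unknown. The genome and annotation of mm9 were not used here, so the planned counts of gene starts and gene lists, and sequences, are left out.

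Analysis used Python 3.11.15 with pandas 2.3.3. Percentiles are ranks within the whole list, and positions are counted from 1. Chains join peaks of a list at most 1000 bp apart. Genome shares use chromosome spans up to the last peak. Intervals are Wilson 95% (scipy 1.17.1) and cover counting error only. Near and far regions were compared with the library as unit, and p-values come from flipping the signs of the library differences. When the differences of 3 libraries have the same sign, p is 0.25 whatever their spread. The libraries were also measured over the same regions, which by the rule hold a peak of each PT list, so they are not independent in this. The named regions were the highest by lowest PT percentile, 6 with the neighbour in all PT lists and 4 with it in none, besides those at the limit. Alternatives changed the gap limit, score, chromosomes, coverage, merging and libraries. The members, lists and tests were chosen with earlier results of these data known. The region functions recovered 100% of 1200 regions planted in 5 simulated lists, and merging was checked against bedtools 2.31.1.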

Additional observations from a re-analysis of the deposited data

How the results depend on the processing

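Read depth is unknown, and the 3722 peaks of AstroEGFR 3 limit every statement on the absence of a peak there. The following shares are, in order, those of acquired regions within the limit, of members with the neighbour in all PT lists and of members with AstroEGFR peaks on both sides. A gap limit of 1000 bp gave 611 members and 16.3%, 36.5% and 10.5%, and a limit of 2000 bp gave 988 members and 26.4%, 36.2% and 16.9%. A limit of 10000 bp gave 54.7% within it and 36.3% on both sides. A score of at least 100 gave 715 members, 33.5% within the limit and 21.5% on both sides, and the upper 50% of each list gave 545 members and 29.9%, 44.4% and 16.7%. Merging across 500 bp gave 887 members and 28.7%, 35.1% and 19.1%, since close regions are then joined to their neighbour. Autosomes alone and a coverage of 25% of the region moved none of these beyond counting error.

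Leaving out each library in turn gave from 910 to 7727 members, the highest without PT 3, and from 9.37% to 45.5% within the limit. It gave from 40.4% to 70.7% with the neighbour kept and from 6.26% to 28.2% on both sides, with the lowest value of the latter without AstroEGFR 1. Chosen after seeing the data, a PT peak of each list anywhere in the merged region of the neighbour gave 50.5% kept. Where lists held unplaced sequences 39.8% lay within the limit, and where they did not 6.20%. Mean differences between near and far regions were negative under each alternative that was run. When a PT library was left out, they ran from -49.2 to -12.2 bp for peak width and from -4.29 to -1.74 points for percentile. For covered length they ran from -124 to -49.5 bp, and each was smallest in size without PT 1.

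Numbers 1 and 3 occur in both groups, and tumours came from numbered astrocyte batches, but the labels do not name the batch of PT 1, PT 3 or PT 4, and 2 pairs cannot show it. With the replicate block, 214 regions were acquired beside an AstroEGFR peak of their own number in both pairs, or 3.90% of those acquired in both, 61.2% with the neighbour kept and 3.27% flanked on both sides; fewer regions can meet both conditions by construction. The mean paired differences were -30.0 bp, -3.13 points and -91.2 bp (exact permutation p = 1, 0.5 and 1, with 0.5 the smallest that 2 pairs allow). For peak width and covered length the 2 pairs had opposite signs, and only the percentile had the same sign in both. The counts of gene starts were not run, since no annotation of mm9 was used here.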
